A study of Mus musculus with 16 samples.

Results

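The regions of open chromatin that differ between Runx1-het progenitors and wild-type progenitors of the same set are described here, by their rank, their width and the genes they lie nearest to. All peaks of the Runx1-het list and of the set-1 wild-type list on chromosomes 1 to 19 were joined wherever they overlapped by at least 1 bp. This gave 90383 merged regions, out of 118981 formed in the same way from all 8 peak lists of the series. A region with peaks of both lists was called shared, one with a Runx1-het peak alone gained, and one with a wild-type peak alone lost. There were 18681 gained regions (20.7% of the 90383), 7966 lost regions (8.81%) and 63736 shared regions (70.5%).

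RUNX1 is the DNA-binding subunit of core-binding factor, which acts together with the non-DNA-binding subunit CBFB. It recognises a short motif, TGTGGT, and less often TGCGGT, at enhancers and promoters of blood genes, and it is required for the emergence of blood stem cells and for megakaryocyte and lymphoid differentiation. Loss of a single copy in people causes a platelet disorder with a raised risk of leukaemia. ATAC-seq reads open chromatin through the transposase Tn5, which inserts sequencing adapters where DNA is accessible.

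The cells were haematopoietic progenitors (multipotent progenitors, per the labels) from mice 21 days old, with 2 samples for each genotype. The list of main interest came from mice labelled Runx1-het, heterozygous at Runx1 and carrying no other labelled mutation. A further list came from Flt3-ITD/Runx1-het mice, which carry in addition an internal tandem duplication of the receptor tyrosine kinase Flt3. The remaining lists came from Flt3-ITD mice (1 list in each of 2 sets), NUP98-HOXD13 mice, which carry a leukaemia fusion gene, NUP98-HOXD13/Flt3-ITD mice, a second wild type (set 2) and the wild type of set 1. The sets are told apart by the sample titles only. The sources used here do not give the Runx1 allele, the way it was inactivated, the mouse strain or the sorting gate. The 2 samples of a group name 1 peak list, so there is no value per sample, no spread between replicates and no test between genotypes. Every difference below is a description of 2 lists.

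The Runx1-het list was the longer one. It held 124657 peaks on chromosomes 1 to 19, which formed 83375 regions over 48.6 Mb, against 110352 peaks, 72460 regions and 44.3 Mb in set-1 wild type. The set-2 wild-type list was longer than both, with 88774 regions. Read depth is unknown, because the values used are those of called peaks and no read counts. Of 10 progenitor markers, 9 had a region inside or within 1 kb of the gene in both lists, among them Kit, Cd34, Flt3 and Spi1, and Ly6a had none in either list (0). Markers of other cells also had regions, namely 3 of 4 B cell, 3 of 4 T cell, 3 of 4 erythroid, 2 of 4 granulocyte and 4 of 4 stromal markers in each list. An open region is not expression, so these counts neither separate the labelled cell type from others nor measure admixture, and the part of other cells in the results was not tested. Likewise, a lost copy of a gene cannot be read from peaks, so the Runx1 locus below is no check of the genotype.

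Start sites were among the highest gained and the highest lost regions, and these are shown first. Start sites and their 300-base windows (250 bases before the start and 50 after it) are those of RefSeq on GRCm38.p6. The region at the start of Zfp329, a zinc finger gene (chr7:12818321-12819176), was absent from the Runx1-het list and lay in the top 2.84% of the set-1 wild-type list. The region at the start of Clec4a3, a C-type lectin receptor gene of myeloid cells (chr6:122951964-122952843), was likewise absent from the Runx1-het list and in the top 7.57% of the set-1 wild-type list. Among the gained start sites, Trpm2, a calcium-permeable channel of myeloid cells (chr10:77969709-77970183), lay in the top 18.3% of the Runx1-het list, and Fkbpl, an FKBP-like co-chaperone gene (chr17:34644620-34644943), had a −log10 p of 107.9. A set-1 wild-type region lay 203 bp from the Trpm2 region. Each of these gained and lost start site regions was present in all 6 lists other than Runx1-het and set-1 wild type. The windows are given in the direction of the gene, with each match to either form of the motif, on either strand, in capitals. Zfp329 and Clec4a3 are shown as the highest losses over the start site of a protein-coding gene, Trpm2 and Fkbpl as the highest gains over such a start site, and the start sites of Runx1 as those of the affected gene.
Zfp329 (GRCm38.p6, chr7:12818811-12819110, minus strand): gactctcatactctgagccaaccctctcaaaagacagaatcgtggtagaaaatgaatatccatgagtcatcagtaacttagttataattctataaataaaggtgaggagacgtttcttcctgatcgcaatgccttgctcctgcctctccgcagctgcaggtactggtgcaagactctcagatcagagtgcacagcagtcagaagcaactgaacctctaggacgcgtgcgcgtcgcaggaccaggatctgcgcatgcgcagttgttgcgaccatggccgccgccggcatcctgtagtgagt
Clec4a3 (GRCm38.p6, chr6:122952265-122952564, plus strand): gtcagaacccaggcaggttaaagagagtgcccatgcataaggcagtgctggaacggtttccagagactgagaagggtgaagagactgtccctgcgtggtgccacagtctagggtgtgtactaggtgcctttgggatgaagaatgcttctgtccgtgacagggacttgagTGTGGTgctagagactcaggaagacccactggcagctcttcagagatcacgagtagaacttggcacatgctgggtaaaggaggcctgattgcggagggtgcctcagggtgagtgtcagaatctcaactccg
Trpm2 (GRCm38.p6, chr10:77969823-77970122, minus strand): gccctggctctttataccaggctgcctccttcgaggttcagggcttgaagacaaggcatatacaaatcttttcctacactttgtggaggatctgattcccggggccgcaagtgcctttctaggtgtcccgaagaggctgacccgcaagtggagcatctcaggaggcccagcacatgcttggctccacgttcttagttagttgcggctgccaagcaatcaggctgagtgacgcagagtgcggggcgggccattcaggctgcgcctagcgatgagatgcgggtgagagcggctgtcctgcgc
Fkbpl (GRCm38.p6, chr17:34644564-34644863, plus strand): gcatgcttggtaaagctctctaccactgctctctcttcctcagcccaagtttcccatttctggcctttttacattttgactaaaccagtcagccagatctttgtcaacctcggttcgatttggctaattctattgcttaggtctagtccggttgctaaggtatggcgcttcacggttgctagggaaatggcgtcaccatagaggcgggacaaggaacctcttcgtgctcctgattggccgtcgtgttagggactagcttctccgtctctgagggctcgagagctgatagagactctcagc
Runx1 first start site (GRCm38.p6, chr16:92826025-92826324, minus strand): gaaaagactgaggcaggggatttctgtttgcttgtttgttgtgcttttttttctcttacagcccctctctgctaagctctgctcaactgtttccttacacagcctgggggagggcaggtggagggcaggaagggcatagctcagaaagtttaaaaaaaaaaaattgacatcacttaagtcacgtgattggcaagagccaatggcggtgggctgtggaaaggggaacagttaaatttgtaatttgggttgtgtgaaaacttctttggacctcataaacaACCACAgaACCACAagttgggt
Runx1 second start site (GRCm38.p6, chr16:92697280-92697579, minus strand): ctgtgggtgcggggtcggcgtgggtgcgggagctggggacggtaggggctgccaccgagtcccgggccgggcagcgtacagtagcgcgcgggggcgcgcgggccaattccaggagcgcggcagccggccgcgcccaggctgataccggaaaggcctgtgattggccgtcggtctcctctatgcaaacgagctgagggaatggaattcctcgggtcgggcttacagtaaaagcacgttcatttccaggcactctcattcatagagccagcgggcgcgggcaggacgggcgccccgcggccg
The Clec4a3 window held 1 match and the first Runx1 window 2, and the windows of Zfp329, Trpm2, Fkbpl and the second Runx1 start held none (0). A match is a string in the window, not a bound site.

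At start sites that differed the motif was about as frequent as at start sites in general. TGTGGT on either strand was found in 15.8% of 520 windows that overlapped a gained region, in 16.8% of 197 that overlapped a lost region, in 12.6% of 14109 that overlapped a shared region and in 20.2% of 16570 with no region. Over all 31396 windows the share was 16.7%, so gained and lost windows lay near the background. TGCGGT was found in 7.12% of gained, 5.08% of lost, 10.3% of shared and 3.19% of region-free windows, and in 6.46% of all. The forms were counted separately, and a window can hold both.

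The Runx1 locus kept its open regions. Within 2 kb of the gene (chr16:92601466-92826074) the union held 15 regions, of which 14 were shared, 1 was gained and none was lost (0). The region over the first start site (chr16:92825609-92826326) had a −log10 p of 82.8 in Runx1-het, which put it in the top 24.95% of that list, and 80.2 in set-1 wild type, the top 25.09%. The region over the second start site (chr16:92697195-92698981) had 79.9 in Runx1-het, the top 25.8%, and 82.1 in set-1 wild type, the top 24.5%. Both promoters thus held nearly the same place in the 2 lists. The highest region of the gene, 24.6 kb downstream of the first start (chr16:92800738-92802211), had 266.6 in Runx1-het, the top 5.89%, and 190.1 in set-1 wild type, the top 9.005%. The gained region (chr16:92724393-92724907) had 23.0 in Runx1-het, the top 61.2%, and was also present in Flt3-ITD/Runx1-het (24.8) and in set-2 wild type (18.96).

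Runx2, Runx3 and Cbfb were taken in the same way, with the regions within 2 kb of the gene. Their counts are to be read beside the whole union, of which 20.7% was gained and 8.81% lost. Cbfb had 2 regions, both shared, and the one at its start site had a −log10 p of 403.2 in Runx1-het and 307.9 in set-1 wild type. Runx3, which acts in T cells and other lymphocytes, had 12 regions, of which 8 were shared, 3 were gained and 1 was lost. Its start site region had 477.6 in Runx1-het and 413.5 in set-1 wild type, in the top 1.79% and 2.10% of those lists. The lost Runx3 region had 13.8 in set-1 wild type, the top 76.4%, and was present in Flt3-ITD/Runx1-het and in set-2 wild type. Runx2, best known for bone formation and also active in plasmacytoid dendritic cells, had 29 regions, of which 20 were shared, 8 were gained and 1 was lost. The highest of its 8 gained regions had 34.6 in Runx1-het, the top 48.9%, and the lost one 9.02 in set-1 wild type, the top 85.2%. The core-binding factor list of 7 genes also holds Runx1t1, Cbfa2t2 and Cbfa2t3, which encode ETO family corepressors. With every region nearest to them, up to 100 kb away, these 7 genes had 24 gained regions (20.7%), 5 lost (4.31%) and 87 shared. The gained share was close to the 20.1% of all regions with a gene, and the lost share was below their 8.65%. Runx3 had 7 of the 24 gained regions, among them the highest, 13471 bp from the gene, with 44.8 in Runx1-het, the top 41.2%.

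**Figure D1:**
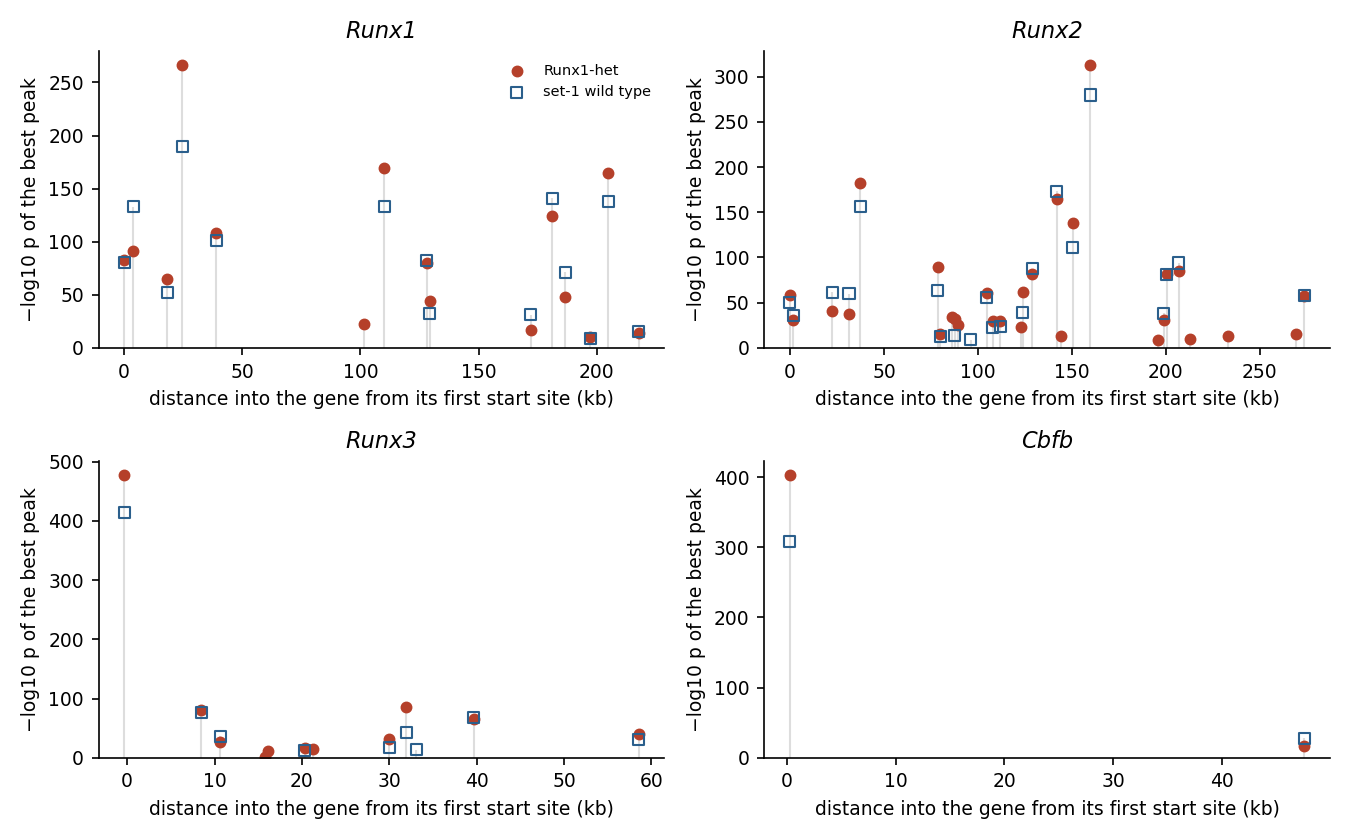
Regions within 2 kb of Runx1, Runx2, Runx3 and Cbfb, with the distance from the first start site (kb, into the gene) on the x axis and the −log10 p of the best peak on the y axis. Filled circles are Runx1-het and open squares set-1 wild type, each on the scale of its own list; a lone circle is a gained region and a lone square a lost one, and these lie near the bottom of each plot, at 34.6 or less.

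Gained and lost regions were alike in width and in median −log10 p and fold enrichment, and unlike shared regions. Gained regions more often than lost ones had a high rank or the maximum score. The median width was 351 bp for gained regions (quartiles 266 and 473), 342 bp for lost regions (263 and 467) and 641 bp for shared regions (462 and 881). The median −log10 p was 17.4 for gained regions, 15.3 for lost regions, and for shared regions 68.6 in Runx1-het and 57.7 in set-1 wild type. Of the gained regions 85.7%, and of the lost regions 94.3%, lay in the lower-ranked 50% of their own list, against 21.96% of shared regions in the Runx1-het list. The authors' fold enrichment had a median of 5.52 in gained regions and 5.65 in lost regions, against 11.5 in Runx1-het and 11.2 in set-1 wild type for shared regions. A score at its maximum of 1000 was given to 11.3% of gained regions and 1.97% of lost regions. For shared regions the share was 72.6% in Runx1-het and 54.1% in set-1 wild type. Gained regions were 1 peak each in 82.4% of cases, lost regions in 83.5%, and shared regions in 60.2%.

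**Figure D2:**
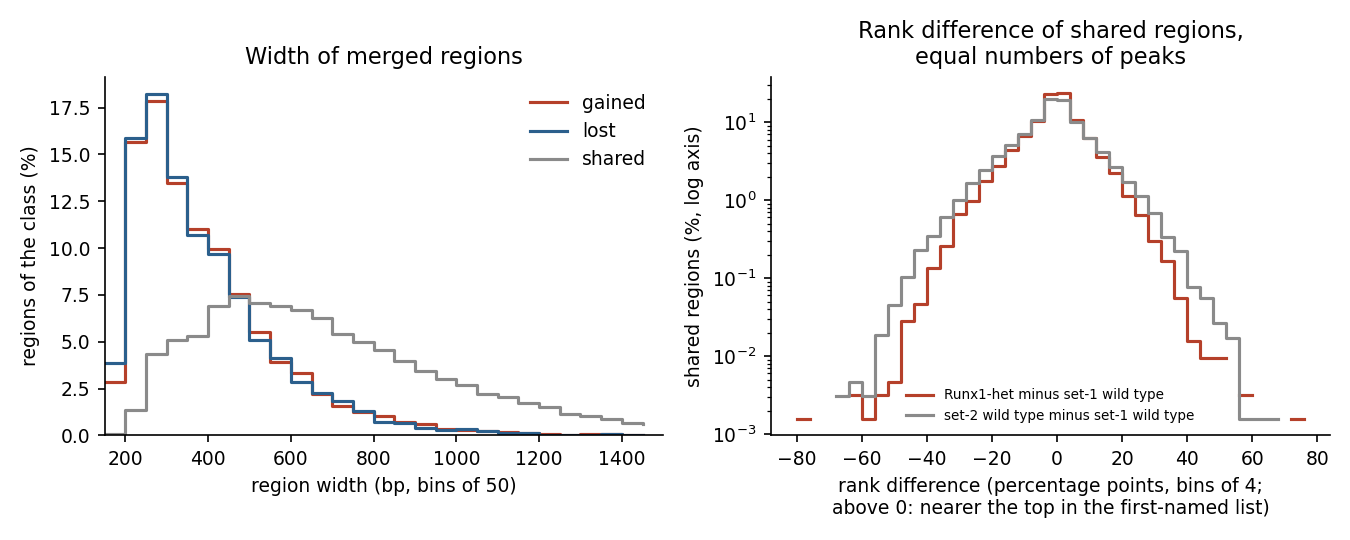
Left, widths of gained, lost and shared regions (bp) against the share of each class (%); the gained and lost curves lie on each other, with medians of 351 and 342 bp, left of the shared curve at 641 bp. Right, the difference in rank of shared regions (percentage points) against their share (%, log axis), for Runx1-het minus set-1 wild type and for set-2 minus set-1 wild type, with 110352 peaks from each list; the curve with Runx1-het is the narrower one.

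Gained and lost regions were seldom at start sites. Over chromosomes 1 to 17 and 19, 464 of 18067 gained regions (2.57%) and 185 of 7718 lost regions (2.40%) covered a RefSeq start site, against 11001 of 61583 shared regions (17.9%). Within 1 kb of a start site lay 7.20% of gained, 7.28% of lost and 21.8% of shared regions. Inside the span of a protein-coding gene lay 52.9% of gained, 54.3% of lost and 61.8% of shared regions. They were not only flanks of regions seen in the other list. The nearest set-1 wild-type region was a median of 5494 bp from a gained region and within 1 kb for 16.8% of them, and the nearest Runx1-het region was a median of 4206.5 bp from a lost region and within 1 kb for 21.6%.

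The share of a list that was missing from the other grew towards its low end. Each list was cut into 10 bins of equal size by rank. In the first bin 0.0121% of Runx1-het regions (1 region) were absent from set-1 wild type, in the fifth 6.88%, in the eighth 40.0% and in the tenth 78.9%. Of set-1 wild-type regions, 0.0139% (1 region) were absent from Runx1-het in the first bin, 0.906% in the fifth, 15.6% in the eighth and 54.1% in the tenth. The 2 wild-type lists, which share a genotype but not a set, gave the same form. Of set-2 wild-type regions 81.3% were absent from set-1 wild type in the tenth bin, and of set-1 wild-type regions 47.9% were absent from the set-2 list. Set 2 against set 1 of wild type also gave 23256 regions of the first list alone and 7107 of the second alone, with 64565 shared. The count of regions seen in Runx1-het alone, 18681, was lower than the 23256 between these wild-type lists, and the 7966 lost regions were more than the 7107.

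**Figure D3:**
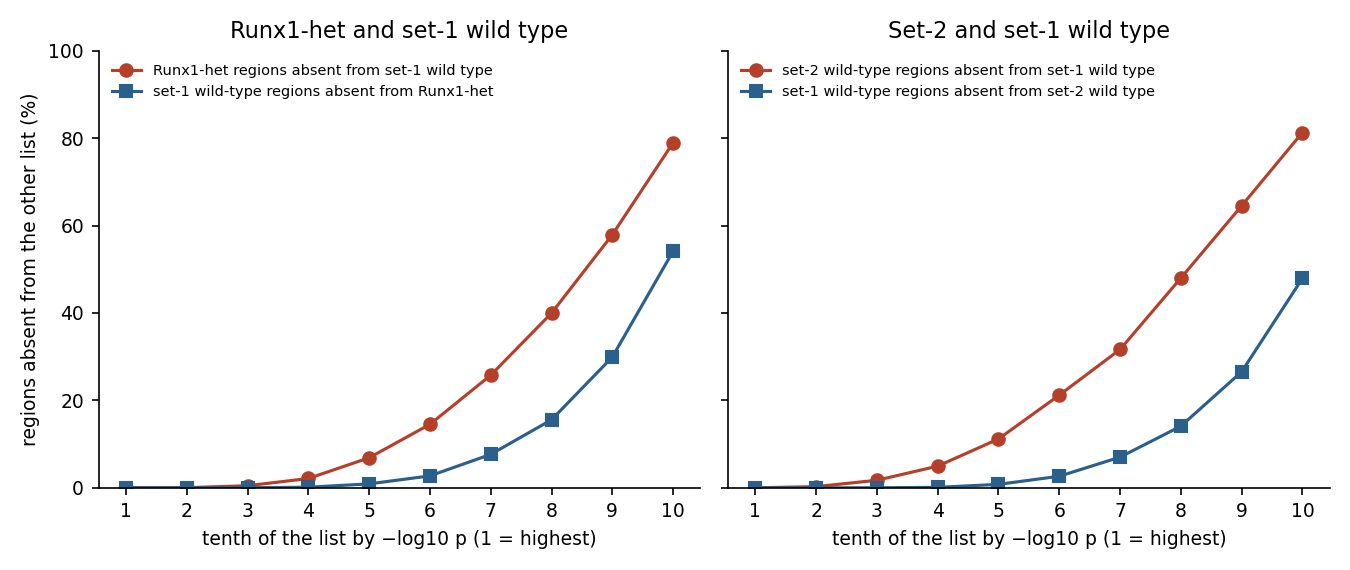
Share of regions absent from the other list (%) in each of 10 bins by −log10 p, from the highest (1) to the lowest (10), for Runx1-het and set-1 wild type (left) and for the wild types of set 2 and set 1 (right). In both panels nearly all regions of bins 1 to 3 are present in the other list, and the tenth bin reaches 78.9% for Runx1-het and 54.1% for set-1 wild type in the left panel.

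The excess of gained over lost regions depended on how the lists were cut to size. There were 2.35 gained regions per lost region with all peaks. With the 110352 highest peaks of each list, the gained regions were 18218 (20.3% of 89920), the lost 7997 (8.89%) and the shared 63705, or 2.28 gained per lost. With the 50000 highest peaks of each list they were 4724 gained and 4089 lost, or 1.16 per lost, and with the 20000 highest peaks 1955 and 1721, or 1.14. With the 72460 highest merged regions of each list they were 10673 and 10569, or 1.01, a balance that equal numbers of regions fix in advance. Against the set-2 wild type, which had the longer list, there were 11768 gained and 17245 lost regions, or 0.682 per lost. Gained minus lost is close to the difference in the number of regions of the lists, so with all peaks the longer list has more regions of its own. A region left out by a cut may still have a lower-ranked peak in the other list. With 20000 regions of each list that held for 2010 of 2018 gained and 2041 of 2043 lost regions, with 50000 for 3248 of 5287 and 4553 of 5319, and with 72460, which is all of set-1 wild type, for none of the 10673 gained (0) and 2603 of the 10569 lost.

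High-ranked regions that differed were few. Among gained regions 82 (0.0907% of the union), and among lost regions 4 (0.00443%), had their best peak in the top 25% of their own list, which is a −log10 p of at least 82.6 in Runx1-het and 80.3 in set-1 wild type. All 82 were present in set-2 wild type, 81 in Flt3-ITD/Runx1-het, and 64 in each of the 7 lists other than set-1 wild type. The 4 lost regions were present in each of the 7 lists other than Runx1-het. So no high-ranked gained region (0) was missing from both wild-type lists, and no high-ranked lost region (0) was missing from both lists with Runx1-het. With equal numbers of peaks the counts were 44 and 4, and against set-2 wild type 6 and 84.

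Of the 12 highest gained regions, 11 were present in each list but set-1 wild type, and the one inside Osbpl8 was also absent from Flt3-ITD of set 2. The highest, 25078 bp from Col19a1 (chr1:24613000-24613231), was at rank 226 in Runx1-het and absent from set-1 wild type, whose nearest region lay 20372 bp away. This short region (232 bp) had a −log10 p of 966.1 in Flt3-ITD/Runx1-het and 2648 in set-2 wild type. It was the highest peak of every set-2 list, whatever the genotype. No other gained region lay in the top 10% of the Runx1-het list. Whether so short and high a peak reflects open chromatin or an artefact of mapping was not tested. The next ones were Pptc7 (a mitochondrial phosphatase gene), Cacna2d3 (a calcium channel subunit gene), Thnsl2, Cyth4 (a cytohesin of blood cells), Klk4 and Fbxo40, in the top 13.6% to 16.8% of the Runx1-het list. In set-2 wild type these 6 were in the top 13.5% to 26.7%. At Cacna2d3 the nearest set-1 wild-type region was 252493 bp away, while at Trpm2 and Enpp7 it was 203 and 173 bp away. Joining peaks within 500 bp of each other therefore turned the regions at Trpm2 and Enpp7 into shared ones, and the other 10 of the 12 highest stayed gained.

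The leading lost regions showed the mirror image. Zfp329 lay in the top 3.93% of the Flt3-ITD/Runx1-het list and in the top 3.86% of set-2 wild type, and its nearest Runx1-het region was 14319 bp away. Clec4a3 lay in the top 10.02% of Flt3-ITD/Runx1-het and in the top 3.06% of set-2 wild type. After them came Acbd3, a Golgi protein gene, and Il12b, an interleukin subunit gene, in the top 21.4% and 24.8% of set-1 wild type. Foxn3, Gli3, Cntfr, Me3, Olfr308, Mecom and Arrdc3 followed in the top 26.3% to 29.6%. Mecom encodes the stem cell transcription factor EVI1. Its lost region, inside the gene (chr3:30233995-30234438), had a −log10 p of 69.9 in Flt3-ITD/Runx1-het and 65.6 in Flt3-ITD of set 1, against 68.1 in set-1 wild type and 23.3 in set-2 wild type. All 12 of the highest lost regions stayed lost against set-2 wild type, and none of the 12 highest gained regions stayed gained (0).

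**Figure D4:**
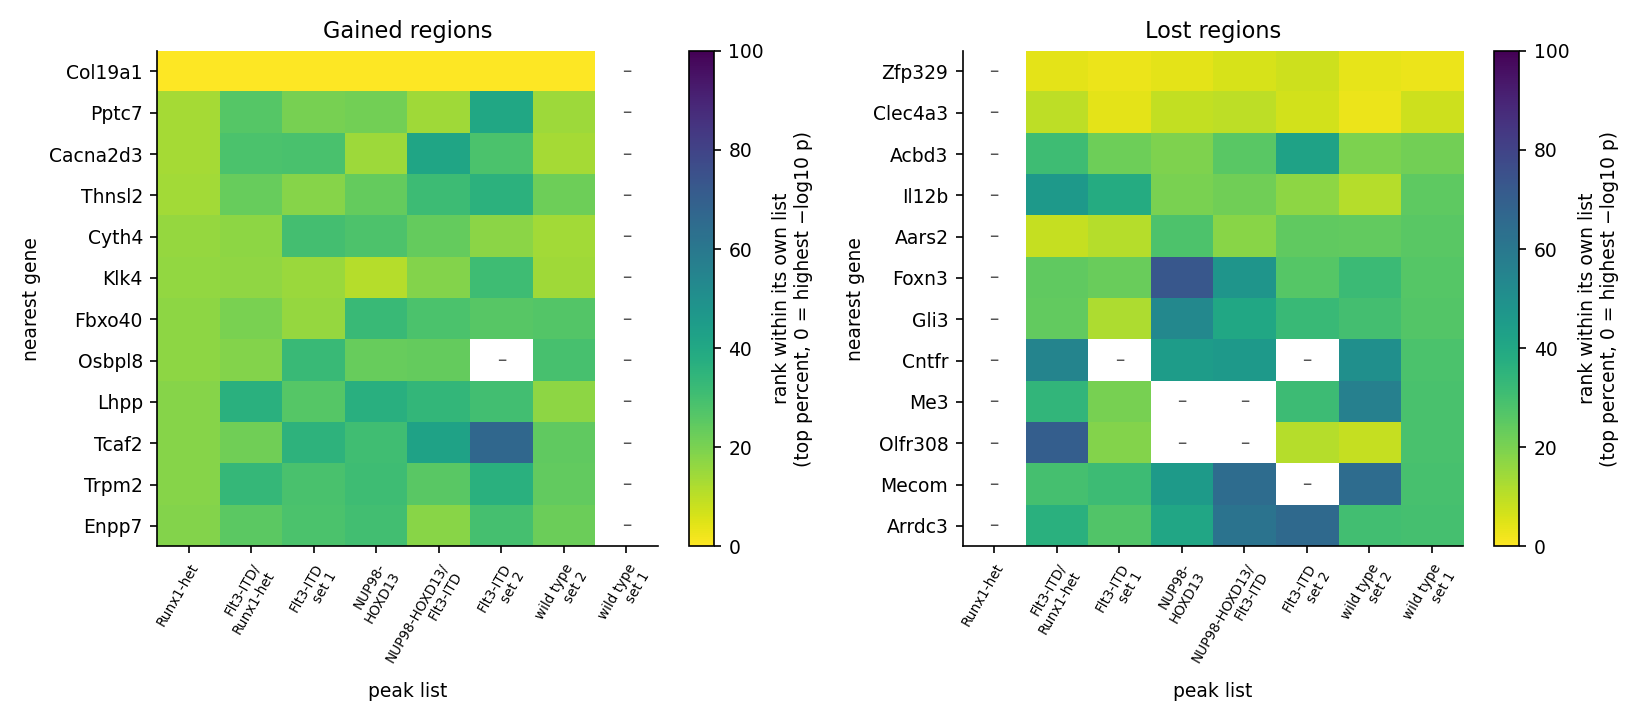
Rank within its own list (colour, top percent) of the 12 gained regions (left) and 12 lost regions (right) with the highest −log10 p, named by the nearest gene, in the 8 peak lists from Runx1-het to set-1 wild type; a dash marks a list without a peak. The gained regions are empty in set-1 wild type and filled in set-2 wild type, and the lost regions are empty in Runx1-het and filled in Flt3-ITD/Runx1-het.

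Across all ranks, gained and lost regions recurred in the other lists at nearly the same rate. In Flt3-ITD/Runx1-het 47.6% of gained and 46.6% of lost regions were present, and in set-1 Flt3-ITD 47.0% and 49.0%. In set-2 wild type 56.9% of gained regions (10631) and 56.9% of lost regions (4533) were present. Shared regions were present in 91.3% of cases in Flt3-ITD/Runx1-het, 92.1% in set-1 Flt3-ITD and 94.4% in set-2 wild type. The second list with Runx1-het, Flt3-ITD/Runx1-het, thus held about the same share of gained regions as Flt3-ITD of set 1, and a lower one than the longer list of set-2 wild type. Recurrence was higher for stronger regions. Of the 4670 highest gained regions by −log10 p 84.0% were present in set-2 wild type, and of the 4671 lowest 32.0%. Of the 1992 highest lost regions 78.4% were present there, and of the 1992 lowest 38.6%. In none of the other lists were 2990 gained regions (16.0%) and 1113 lost regions (14.0%).

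Regions that followed the Runx1 label in both Runx1-het lists and both wild types were weaker. The Flt3-ITD, NUP98-HOXD13 and NUP98-HOXD13/Flt3-ITD lists, which carry no Runx1 label, were not part of this rule. Of the gained regions 2721 (14.6%) were also in Flt3-ITD/Runx1-het and absent from both wild types, and of the lost regions 2056 (25.8%) were absent from both Runx1-het lists and present in both wild types. The opposite patterns were 4453 gained regions (23.8%) in set-2 wild type and not in Flt3-ITD/Runx1-het, and 1234 lost regions (15.5%) in Flt3-ITD/Runx1-het and not in set-2 wild type. Gained and lost regions were thus split alike, with more of each in the longer set-2 wild-type list than in the Flt3-ITD/Runx1-het list. The highest such gains lay nearest to Tmem68 (−log10 p 69.0), Ppp1r21 (68.6), Cpsf6, an mRNA 3′-end processing factor gene (66.5), Pitrm1, a mitochondrial peptidase gene (65.2), Prr5 (65.2), Spon1 (64.0) and Cotl1, which encodes an actin-binding protein of blood cells (62.4). They lay in the top 29.3% to 31.8% of the Runx1-het list. Each of these gains was also present in a list without a Runx1 label. In set-1 Flt3-ITD Pitrm1 had 107.7 and Tmem68 73.5, and Ppp1r21 and Prr5 had no peak. Of the 6 lists beside Runx1-het and set-1 wild type, Pitrm1, Spon1 and Cotl1 were in 5. Tmem68 and Ppp1r21 were in 4, and Cpsf6 and Prr5 in 2, with Flt3-ITD/Runx1-het counted each time. The regions at Prr5 and Cotl1 became shared ones when peaks within 500 bp were joined. The Cpsf6 region (chr10:117323802-117324195) had 74.0 in Flt3-ITD/Runx1-het and was otherwise present in set-1 Flt3-ITD alone (36.4). The highest such losses lay nearest to Clstn2 (57.6 in set-1 wild type and 168.7 in set-2 wild type), Dlg2 (56.3 and 68.3), Slc25a13 (55.1 and 29.7), Epm2a (55.1 and 60.2), Nsun3 (51.3 and 45.8), Rfc1, a subunit of the clamp loader of DNA replication (49.3 and 76.0), and Scoc (48.8 and 22.4). They lay in the top 33.8% to 38.6% of the set-1 wild-type list, so none of these gains and losses was in the top 25%.

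Shared regions kept their order. With 110352 peaks from each list, the ranks of 63705 shared regions had a Spearman correlation of 0.933 across regions, which share chromosomes and are not replicates. Rank differences had a median of −0.11 percentage points, with 5% below −18.1 and 5% above 15.4. More than 25 points nearer the top in Runx1-het were 650 regions, and more than 25 points lower 1174, together 2.86%. Between set-2 and set-1 wild type the correlation was 0.900 over 64203 regions, and 1434 and 2278 regions (5.78%) moved by more than 25 points. The spread in rank between Runx1-het and its wild type was thus the smaller of the 2, with no test of the difference. The largest shift towards the top was inside Osbpl8 (chr10:111273443-111274076), in the top 19.2% of Runx1-het and the top 77.1% of set-1 wild type, and that region was absent from Flt3-ITD/Runx1-het. The region over the start of Elovl6, a fatty acid elongase gene, was in the top 43.4% of Runx1-het and the top 99.8% of set-1 wild type. The largest shift the other way, 14335 bp from Olfr97, was in the top 87.8% of Runx1-het and the top 10.2% of set-1 wild type, and it was in the top 15.1% of Flt3-ITD/Runx1-het and the top 6.53% of set-2 wild type.

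Genes were next set beside their nearest regions, within 100 kb of the gene span. Of 16653 protein-coding genes with a region, 8310 (49.9%) had a gained and 4779 (28.7%) a lost region, and 3236 had both. At least 3 gained and no lost region was found at 749 genes, and at least 3 lost and no gained region at 52. The most gained regions lay at Foxp1, a forkhead gene that acts in early B cells, with 19 gained, 6 lost and 42 shared. Elmo1, a regulator of Rac-driven migration, had 16, 4 and 29, and Hmga2, a chromatin protein of fetal stem cells, had 13, 3 and 12. The most lost regions lay at Pde4d, a phosphodiesterase gene spanning 1302 kb, with 16 gained, 13 lost and 47 shared. Such counts grow with the number of regions a gene has, and of all 83268 regions with a gene 20.1% were gained and 8.65% lost.

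Reported RUNX1 target genes carried more gained regions than genes did overall. Of 34 listed targets 32 had a region, 27 of them (84.4%) had a gained region and 13 (40.6%) a lost one, against 49.9% and 28.7% of all genes. Of their 305 regions 95 (31.1%) were gained and 23 (7.54%) lost, against 20.1% and 8.65% of all regions. The gained share was 30.5% with equal numbers of peaks (19.7% of all regions) and 29.7% with the nearest gene limited to 10 kb (19.3%). It was 19.8% with equal numbers of merged regions (12.6%) and 16.5% against set-2 wild type (11.9%). The lost share was 13.4% with equal numbers of merged regions (12.6%) and 11.4% against set-2 wild type (16.2%). The regions of these genes ranked lower than average in the Runx1-het list, with a median in the top 45.0%, against 37.9% over all regions with a gene, and lower-ranked regions were the ones more often gained. The part of that rank difference in the gained share was not tested. Shared regions of the list shifted by a median of −0.10 points with equal numbers of peaks, against −0.13 over all.

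Among the lymphoid targets, Ebf1, a B cell commitment factor, had 12 gained, 3 lost and 13 shared regions, and Pax5, which maintains B cell identity, had 7, 0 and 5. Tcf7, an early T cell factor, had 5, 1 and 5, Zbtb7b, the CD4 lineage factor, had 1, 2 and 4, and Cd4 had 2, 0 and 1. The highest gained region of the list was inside Ebf1 (chr11:44928408-44928798), with a −log10 p of 79.3 in Runx1-het, 78.0 in Flt3-ITD/Runx1-het and 76.7 in set-2 wild type. Among the survival and cell cycle genes, Bcl2 had 8 gained, 3 lost and 19 shared regions, Ccnd2 had 3, 2 and 13, Ccnd3 had 2, 0 and 9 and Cdkn1a had 2, 0 and 4. The highest gained regions at Ccnd3 and Bcl2 had 52.98 and 48.18 in Runx1-het and were present in each of the other lists but set-1 wild type.

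Among the myeloid targets, Cebpa, the granulocyte factor, had 4 gained, 0 lost and 7 shared regions. Gfi1 had 3, 1 and 5, Spi1, which encodes PU.1, had 2, 0 and 8, and Csf1r had 2, 0 and 3. Csf3r, the G-CSF receptor gene, had 5 shared regions and no other (0). Among the megakaryocyte targets, Itga2b and Nfe2 had shared regions alone, 3 and 4. Pf4, platelet factor 4, had 2 gained and 2 shared. Myh10, a non-muscle myosin gene that RUNX1 silences as megakaryocytes mature, had 6 gained, 1 lost and 1 shared region. The highest of the gained Myh10 regions (chr11:68750993-68751256) had 41.4 and was absent from Flt3-ITD/Runx1-het and from both wild types. Myl9, the myosin light chain gene that RUNX1 activates in platelets, had 3 gained regions, of which one over its start site (chr2:156775068-156775880) had 38.1 in Runx1-het, 27.8 in Flt3-ITD/Runx1-het and 68.3 in set-2 wild type. The lipoxygenase gene Alox12 had a gained region over its start site, with 20.3 in Runx1-het and 27.1 in set-2 wild type. The highest lost region of the list lay 7506 bp from Hhex (chr19:37448237-37448728), with 37.9 in Flt3-ITD/Runx1-het, 52.2 in set-1 wild type and 94.6 in set-2 wild type.

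Other lists had gained shares of a similar size. Of the regions of the B cell list 30.5% were gained, of the stroma and endothelium list 30.4%, of the T and NK cell list 27.9% and of the mast cell, basophil and eosinophil list 26.8%. The lowest were megakaryocyte and platelet genes with 14.6%, ribosome biogenesis genes with 14.3% and interferon response genes with 14.2%. Ribosome biogenesis regions ranked high, with a median in the top 22.4% of the Runx1-het list, and B cell and stromal regions low, in the top 46.3% and 46.2%. The lost share was highest in the T and NK cell list, with 13.2%, and lowest in the mast cell list, with 3.09%. Against set-2 wild type the gained share of the T and NK cell list was 10.3% and its lost share 19.9%, beside 11.9% and 16.2% of all regions.

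**Figure D5:**
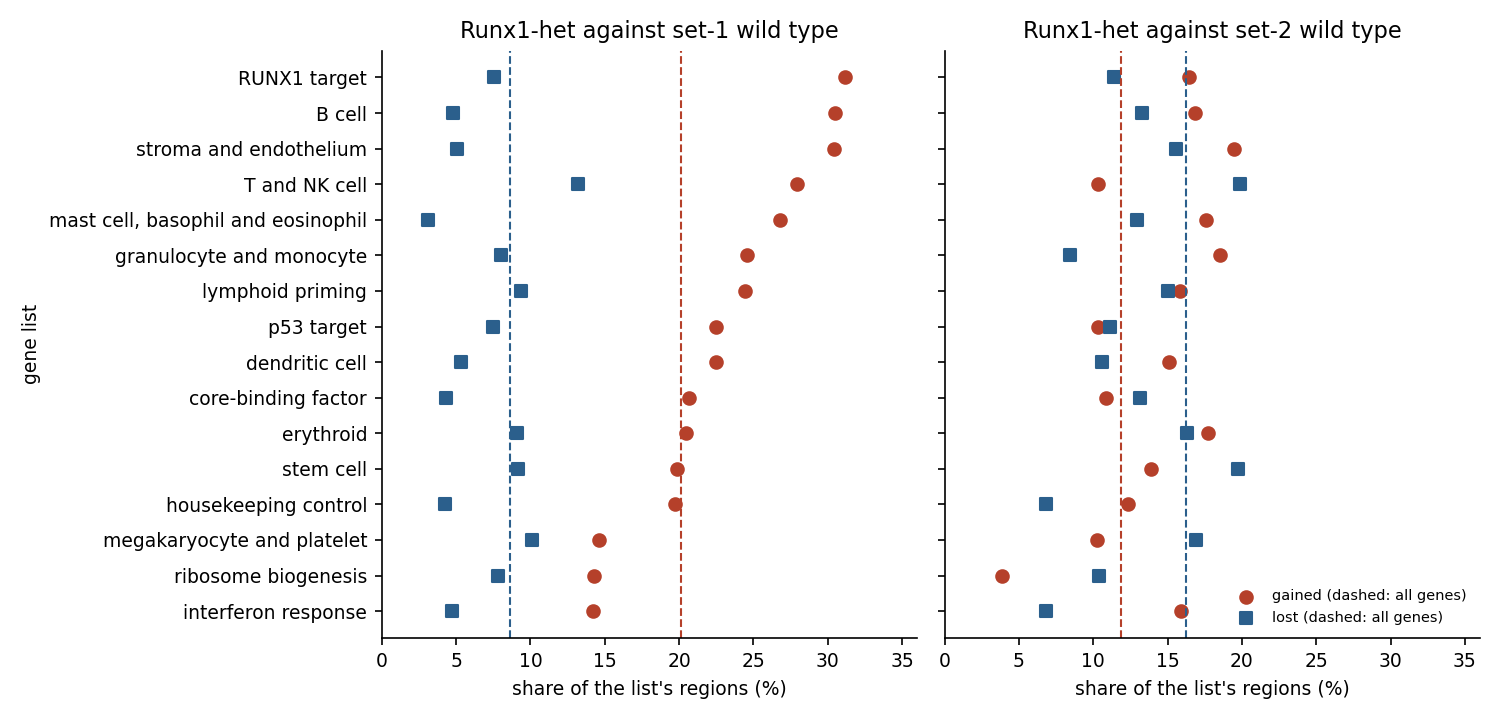
Share of each gene list's regions that was gained (circles) or lost (squares), against set-1 wild type (left) and set-2 wild type (right); dashed lines give the shares over all protein-coding genes, 20.1% and 8.65% on the left and 11.9% and 16.2% on the right. RUNX1 targets have the highest gained share on the left and not on the right.

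Stem cell genes had both gained and lost regions. Of 26 members 14 (53.8%) had a gained and 14 (53.8%) a lost region, against 49.9% and 28.7% of all genes, and of their 272 regions 54 (19.9%) were gained and 25 (9.19%) lost, close to all regions. Mecom had 12 gained, 4 lost and 27 shared regions, and its highest gained region had a −log10 p of 60.2 in Runx1-het, 42.8 in Flt3-ITD/Runx1-het and 92.8 in set-2 wild type. At Hlf, a stem cell transcription factor gene, a lost region 876 bp from the start site had 56.2 in Flt3-ITD/Runx1-het, 59.8 in set-1 wild type and 64.4 in set-2 wild type. Mllt3 had a gained region of 48.3 that was absent from Flt3-ITD/Runx1-het and from both wild types. Fgd5, a stem cell marker, had 3 lost, 9 shared and no gained regions (0), and Slamf1 had 2 lost and 4 shared.

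Lymphoid priming genes had a gained region in 20 of 22 members (90.9%) and a lost one in 12 (54.5%), against 49.9% and 28.7% of all genes. They had many regions each, and of their 332 regions 81 (24.4%) were gained and 31 (9.34%) lost, near the 20.1% and 8.65% of all regions. With equal numbers of merged regions the shares were 14.04% and 14.7%, against 12.6% each over all regions. Foxo1, needed for early B cells, had 7 gained and 18 shared regions, Dntt, the terminal transferase gene of lymphoid progenitors, had 6 and 6, and Flt3 had 4 and 9, each with no lost region. Ikzf1, which encodes Ikaros, had 2 gained and 4 lost, and Sox4 had 1 gained and 4 lost. A region over the start of the recombinase gene Rag2 had 27.8 in Runx1-het and was in none of the other lists (0). A region over the start of Cd79a, a part of the B cell receptor, had 24.0 in Runx1-het and 17.9 in set-2 wild type. At Satb1 a lost region had 37.6 in Flt3-ITD/Runx1-het, 58.8 in set-1 wild type and 40.2 in set-2 wild type.

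Genes of megakaryocytes and platelets, cells that loss of RUNX1 is known to affect, had a gained region in 14 of 25 members and a lost one in 8, or 56.0% and 32.0% against 49.9% and 28.7% of all genes. Of their 178 regions 26 were gained (14.6%) and 18 lost (10.1%). With equal numbers of merged regions 7 of 24 members (29.2%) had a gained region, against 37.0% of all genes. Against set-2 wild type 13 of 25 (52.0%) had a lost one, beside 44.3% of all genes. The lost share of their regions was 16.9% there, beside 16.2% of all regions. Cd9, a tetraspanin, had a gained region of 62.9 and Vwf, von Willebrand factor, one of 52.2, and both were present in set-2 wild type (87.5 and 64.8). Fli1, an ETS factor of the lineage, had 2 gained, 5 lost and 22 shared regions. Of 17 erythroid genes 11 (64.7%) had a gained and 5 (29.4%) a lost region. Those with a lost one were 9 (52.9%) with equal numbers of merged regions and 11 (64.7%) against set-2 wild type. All genes gave 35.2% and 44.3% in those settings. The lost share of erythroid regions was 16.8% and 16.3% there, beside 12.6% and 16.2% of all regions. Granulocyte and monocyte genes had a gained region in 18 of 28 members (64.3%) and a lost one in 10 (35.7%). With equal numbers of merged regions 16 of 27 (59.3%) had a lost one, against 35.2% of all genes. In that setting 15.9% of their regions were gained and 15.9% lost, beside 12.6% each of all regions. Against set-2 wild type 11 of 28 (39.3%) had a lost one, beside 44.3% of all genes. There 8.43% of their regions were lost, beside 16.2% of all. With all peaks, 20.5% of the erythroid and 24.6% of the granulocyte and monocyte regions were gained, near the 20.1% of all. Irf8, a monocyte and dendritic cell factor gene, stood at 7 gained, 13 shared and no lost region (0).

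Interferon response genes had lower gained and lost shares than all genes against set-1 wild type, and the gained share of their regions was the higher one against set-2 wild type. Of 36 members 13 (36.1%) had a gained and 4 (11.1%) a lost region, below the 49.9% and 28.7% of all genes. Against set-2 wild type 15.9% of their regions were gained, above the 11.9% of all regions, and 6.82% were lost, below the 16.2%. Members with a lost region numbered 10 (27.8%) with equal numbers of merged regions and 7 (19.4%) against set-2 wild type. All genes gave 35.2% and 44.3% in those settings. The antiviral gene Oas3 had a gained region over its start site with 63.6 in Runx1-het, 41.4 in Flt3-ITD/Runx1-het and 93.1 in set-2 wild type. Ifit3 had one of 33.7 in Runx1-het and 32.3 in Flt3-ITD/Runx1-het, and it was absent from both wild types. Stat2, Irf9 and Isg15 had shared regions alone, 1 each. Among ribosome biogenesis genes, which RUNX1 is known to regulate, 9 of 27 (33.3%) had a gained and 5 (18.5%) a lost region. Against set-2 wild type 2 (7.41%) had a gained and 8 (29.6%) a lost one. The excess of gained over lost turned round over all genes too, from 49.9% and 28.7% to 36.1% and 44.3%. Ubtf, which encodes a ribosomal RNA transcription factor, had a lost start site region (chr11:102319345-102319692) of 32.7 in set-1 wild type. It was absent from Flt3-ITD/Runx1-het and set-2 wild type. Close beside it lay a gained Ubtf start site region (chr11:102318901-102319207), with 8.23 in Runx1-het and 15.5 in set-2 wild type. Runx1-het thus also had a peak at this start.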

How the data were processed

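ATAC-seq was run on 16 samples in 8 groups of 2, and each group has 1 deposited peak list in the 10-column narrowPeak format. Bowtie2 and MACS2 and the builds mm10 and GRCm38 are named in the submitters' processing notes, with no version. Thresholds, read shifting, duplicate removal and the pooling of samples before peak calling are not stated in the sources used here, and a signal track described as pooled is named in the labels. For each peak the authors deposited a −log10 p-value, a fold enrichment (a ratio over background) and a score that the labels do not explain. These are the authors' values, and each served to order or describe the peaks of its own list. Values from several lists are set side by side and not compared as levels.

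Peaks on X and Y were left out. Peaks were merged by at least 1 bp of overlap, and a region took the values of its best peak by −log10 p. Rank is the position of that peak in its own list, as a top percent. Shifts in rank were taken with the 110352 highest peaks of each list. The nearest gene is the protein-coding gene whose span lies closest, up to 100 kb away (RefSeq, GRCm38.p6, the build of the peaks), 1 of 20661 genes, so a named gene is not a shown target. Exons, introns and UTRs were not annotated. Start sites and promoter sequences are RefSeq's for GRCm38.p6, in 31396 windows on chromosomes 1 to 17 and 19.

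The comparison, its regions and the 16 gene lists (340 genes) were chosen with earlier results of these data known. Regions are named by rule: the 12 highest gained and the 12 highest lost regions by −log10 p, 1 per gene. The 8 highest under equal numbers of peaks are named as well. So are the highest that follow the Runx1 label in both Runx1-het lists and both wild types. Members of the gene lists, and every region within 2 kb of Runx1, Runx2, Runx3 and Cbfb, complete the rule. Not every one is printed. The regions with the largest shifts in rank, the genes with the most regions and the start sites were added after the values were seen. Equal numbers of merged regions were an alternative chosen after seeing the data. Merging, classes and the nearest gene were tested on simulated lists. Python 3.11.15, numpy 2.4.6, pandas 2.3.3, scipy 1.17.1 and matplotlib 3.10.9 were used. With 1 list for each group there are no p-values.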

Additional observations from a re-analysis of the deposited data

How the results depend on the processing

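Each count was made again under other settings, with 82 high-ranked gained and 4 high-ranked lost regions at the top 25%. Shared regions numbered 38085 with the top 50000 peaks of each list, 16067 with the top 20000 peaks and 17922 with the top 20000 merged regions. Gained regions numbered 4724 and 1955 with 50000 and 20000 peaks, 10673, 5287 and 2018 with 72460, 50000 and 20000 merged regions, and 11768 against set-2 wild type. Lost regions numbered 4089 and 1721 with 50000 and 20000 peaks, 2043 with 20000 merged regions, and 17245 against set-2 wild type. High-ranked gained regions numbered 44 with 110352 peaks, 1 with 50000 and 1 with 20000 peaks, 5, 2 and 1 with 72460, 50000 and 20000 merged regions, 6 against set-2 wild type, 1 at the top 10% and 2663 at the top 50%. High-ranked lost regions numbered 2 with 20000 peaks, 2 with 20000 merged regions, 84 against set-2 wild type, 2 at the top 10% and 453 at the top 50%. Fewer peaks or a narrower top share lower these counts by construction. For set-2 wild type the cause was not tested. Counts stayed within 1.5 times with peaks within 500 bp joined (16324 gained, 6714 lost), with an overlap of at least 50% (18699 and 7984) and with a −log10 p of at least 10 (16715 and 7218). Genes of the lists with a gained region numbered 182, and 137 to 180 under the alternatives, and those with a lost region 99, and 83 to 141. Of 32 counts of list members with a gained or a lost region, 8 moved by more than 1.5 times with equal numbers of merged regions, 10 against set-2 wild type and 1 with the nearest gene within 10 kb.

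No paired analysis was possible because the samples of a group share 1 peak list, so no value per sample exists, and for the same reason there was no sample to leave out in turn. Depth is unknown, so a region missing from a list was not called there, which does not show that it was closed. Wild-type lists of the 2 sets differ in set as well as in sample, so their difference is not a replicate error, and genotype and list length cannot be told apart within set 1.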

Other observations

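Gene lists not described above gave these counts, to be read beside the 49.9% and 28.7% of all genes with a gained and a lost region. The share of all genes with a lost region was 35.2% with equal numbers of merged regions and 44.3% against set-2 wild type. Of 20 p53 target genes 10 (50%) had a gained and 6 (30%) a lost region, and 27 of 120 regions (22.5%) were gained and 9 (7.50%) lost. Perp, an apoptosis effector gene, had 4 gained and no lost region (0), and the highest gained region of the list lay near Trp53inp1, with a −log10 p of 42.9 in Runx1-het. Of 16 dendritic cell genes 10 (62.5%) had a gained and 5 (31.3%) a lost region. Those with a lost one were 9 (56.25%) with equal numbers of merged regions and 10 (62.5%) against set-2 wild type. The lost share of their regions was not raised. It was 11.8% and 10.6% in those settings, beside 12.6% and 16.2% of all regions. At Ccr9, a chemokine receptor gene, a gained region had 34.9 in Runx1-het and was present in the other 6 lists beside set-1 wild type. Of 16 mast cell, basophil and eosinophil genes 12 (75%) had a gained and 2 (12.5%) a lost region. Those with a lost one were 5 (33.3%) and 6 (37.5%) under the same alternatives. Mitf, a mast cell factor gene, had 5 gained, 16 shared and no lost regions (0), the highest gained one with 50.6 in Runx1-het, 67.2 in Flt3-ITD/Runx1-het and 69.5 in set-2 wild type. Of 18 housekeeping genes 6 (33.3%) had a gained and 3 (16.7%) a lost region, with the highest gained region inside Psmb2, at 76.7 in Runx1-het and 31.6 in set-2 wild type.

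Chromosomes differed little. The gained share of regions ran between 18.8% on chromosome 7 and 23.1% on chromosome 11, and the lost share between 7.12% on chromosome 19 and 9.86% on chromosome 13.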
